A study of Mus musculus with 8 samples.

Results

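Cd4 transcripts were mapped as single molecules in 8 sections of mouse brain hemisphere bearing GL261 tumour, a mouse glioma line grown in the brain after implantation. All molecules whose target name is Cd4 were taken, which gave 264777 of the 33912787 molecules of all targets. These targets are the 100 panel genes and false-positive codes, which made up 0.106 to 0.306% of the molecules of a section. Cd4 was chosen by measured values of these same sections, its level in the bin classes used here and its distance from T cell transcripts, so its levels are given as a description, with no test. The only tests are those of treatment within bin classes and of the share near T cell transcripts. All mice had been given 4 intracranial treatments, and the tissue was taken on day 21. The 4 groups received PBS, anti-PD1 (an antibody against the PD-1 checkpoint receptor), CpG-STAT3ASO (an antisense oligonucleotide against Stat3 joined to a CpG motif) or CpG-STAT3ASO with anti-PD1, called the combination below. There were 2 sections per treatment. The labels used here state neither mouse strain nor age nor the level of a section in the brain. They also do not say that sections come from separate animals, so p-values measure the spread among these 8 sections alone. A section held 1669939 to 6995401 molecules of all targets, with 1669939 to 3927955 in the 4 sections given CpG-STAT3ASO and 4195896 to 6995401 in the other 4.

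CD4 is the coreceptor of helper and regulatory T cells. It binds MHC class II on the presenting cell and carries the kinase Lck to the T cell receptor, and the cytokine IL-16 is one of its ligands. In the mouse, Cd4 transcripts are also known from brain tissue, and in several species CD4 is found on cells of the monocyte lineage. The T cell transcripts on this panel are Cd3d (a chain of the receptor's CD3 complex), Cd28 (its costimulatory receptor), Foxp3 (the factor that defines regulatory T cells) and Cd8a (the coreceptor of cytotoxic T cells). Cd3d, Cd28 and Foxp3 molecules are called anchors below. No sequence of Cd4 was used here.

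Cd4 was abundant in every section, and its molecules were unevenly placed. PBS sections 1 and 2 held 34064 and 12889 Cd4 molecules, anti-PD1 sections 50889 and 16973, CpG-STAT3ASO sections 30144 and 44974, and combination sections 40169 and 34675. Within each of PBS and anti-PD1, replicate 1 held more than replicate 2, and the ranges of the sections with and without CpG-STAT3ASO overlapped. Each section was divided into square bins of 360 pixels, and bins with at least 20 molecules were counted as tissue (2155 to 2405 per section). Between 30.1 and 60.3% of the tissue bins of a section held no Cd4 molecule. The richest bins (the top 10% of a section) held 41.7 to 71.5% of a section's Cd4, and the fullest bin of a section held 105 to 197 Cd4 molecules.

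**Figure D1:**
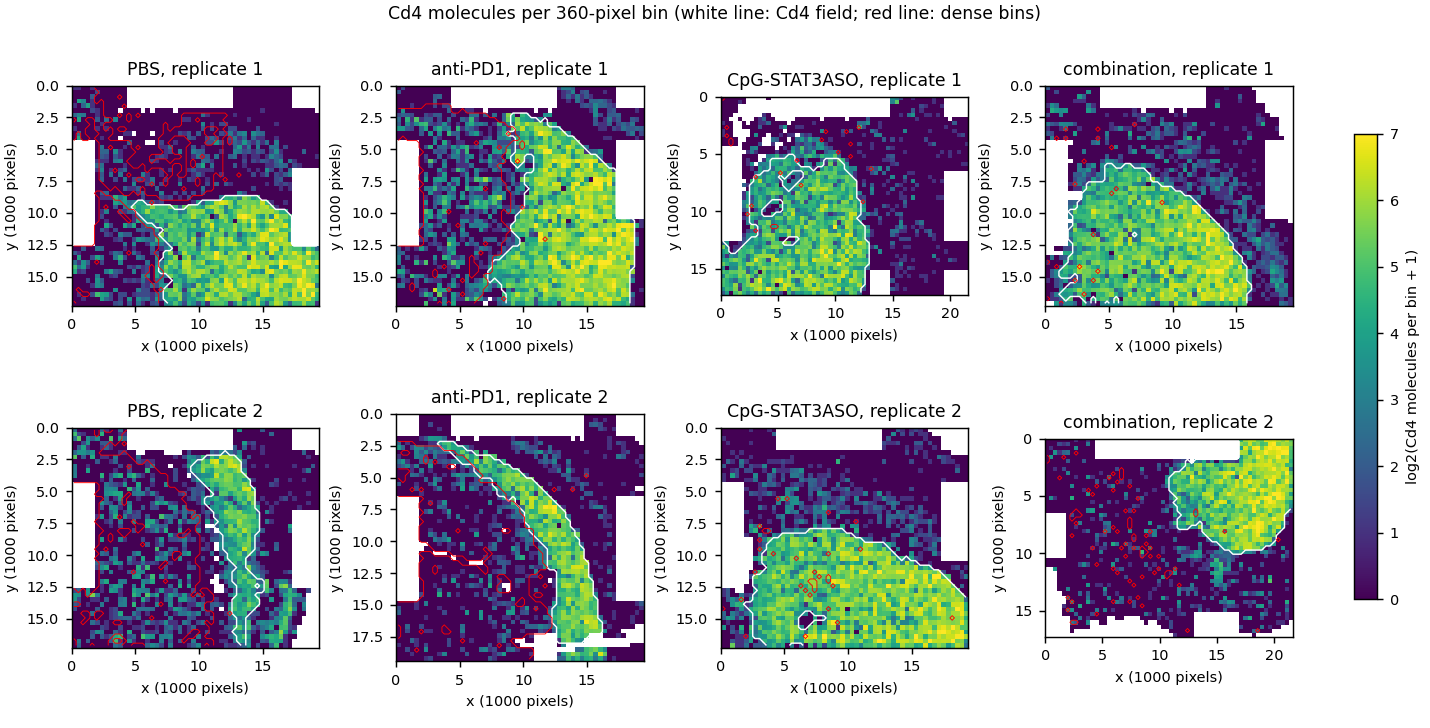
Cd4 molecules per bin of 360 pixels in each of the 8 sections, coloured on a scale of log2(molecules + 1), with x and y in kilopixels. The white line bounds the Cd4 field and the red lines bound dense bins, those with at least 100 Mki67 plus Birc5 molecules. In each section 1 connected area holds most of the bright bins, and in the 4 sections without CpG-STAT3ASO nearly all of the large dense area lies outside it.

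In each section most Cd4 lay in 1 connected area. This area, called the Cd4 field, was drawn from the Cd4 counts themselves after the maps were seen, as the largest connected set of bins whose median over 3 by 3 bins was at least 10 Cd4 molecules, so its Cd4 values are a description. The field covered 32.9 and 12.9% of the tissue bins in the PBS sections, 40.6 and 16.1% with anti-PD1, 38.2 and 44.7% with CpG-STAT3ASO, and 42.4 and 25.4% in the combination sections. It held 93.8 and 59.2% of the Cd4 molecules in the PBS sections and 90.6 and 83.7% with anti-PD1. With CpG-STAT3ASO it held 93.2 and 95.3%, and in the combination sections 94.4 and 93.9%. PBS section 2 had the lowest share. With a limit of 20, its field held 41.3% of its Cd4, and in the other 7 sections the field then held 76.9 to 91.9%. In 6 of 8 sections smaller sets of bins past the limit of 10 lay apart from the field, with 31 such bins in PBS section 2 and 2 to 25 in the other 5.

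Inside the field, the Cd4 density of the treatments overlapped. The mean was 43.7 and 27.3 molecules per bin in the PBS sections, 51.0 and 37.5 with anti-PD1, 31.4 and 43.6 with CpG-STAT3ASO, and 41.1 and 53.4 in the combination sections. The ranges of the sections with and without CpG-STAT3ASO overlapped, with means of 42.4 ± 9.03 and 39.9 ± 10.04 molecules per bin (SD, n = 4 each). In the rest of the tissue the mean was 1.18 to 3.64 molecules per bin, highest in anti-PD1 section 1 and lowest in combination section 2. Whether fewer cells or fewer transcripts per cell set a low value in a bin cannot be told apart.

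The edge of the field was narrow. The first row of bins inside it held 18.2 to 30.6 Cd4 molecules per bin over the 8 sections, the first row outside held 3.84 to 7.19, and the second row outside held 0.873 to 2.25. The limit of 10 fixes part of the step between the first rows on either side. In 7 of 8 sections at least 10 bins of the field shared a side with a place not counted as tissue. Such places can be the border of the imaged area, the edge of the tissue or a sparse bin, which were not told apart.

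**Figure D2:**
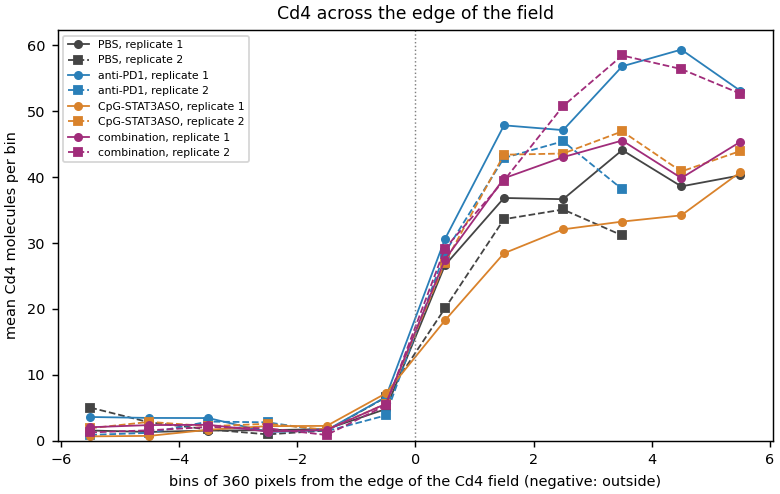
Mean Cd4 molecules per bin against distance from the edge of the Cd4 field in bins of 360 pixels (negative values outside), 1 line per section, colours for treatments. The first bins inside lie between 18.2 and 30.6 and the second bins outside between 0.873 and 2.25 in all 8 sections.

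The placement of Cd4 was also read against the proliferating area. Mki67 (a proliferation marker) and Birc5 (survivin, a mitotic survival factor) served to class bins as dense (100 or more molecules of both together), intermediate (10 to 99) or low (under 10). In the 4 sections without CpG-STAT3ASO, the log2 difference of the Cd4 share between dense and low bins was -6.64, -4.70, -6.13 and -6.22 (mean -5.92, SD 0.844), and that of the molecules per bin had a mean of -2.94 (SD 0.913, n = 4). With CpG-STAT3ASO the differences of the share were -1.79, -0.89, -1.03 and -4.54 (CpG-STAT3ASO 1 and 2, combination 1 and 2), and those of the molecules per bin were -0.60, 0.58, -0.13 and -3.54. Cd4 per bin was thus higher in dense than in low bins in CpG-STAT3ASO section 2 and lower in the other 7 sections. In the 4 sections without CpG-STAT3ASO, bins at least 4 bins inside the dense area held 2.32, 5.06, 5.32 and 1 Cd4 molecules per bin (PBS 1, PBS 2, anti-PD1 1, anti-PD1 2). Bins 4 to 9 bins outside it held 20.7, 16.8, 43.4 and 16.1. At 10 or more bins outside, the values split, with 37.7 and 37.2 in PBS section 1 and anti-PD1 section 1 against 6.48 and 3.13 in PBS section 2 and anti-PD1 section 2. Within the field, Cd4 per bin was lower in intermediate than in low bins in 8 of 8 sections, with means of 31.0 ± 7.78 and 43.1 ± 9.41 (SD, n = 8).

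The field was compared with other low bins for the rest of the panel, as log2 ratios of the share of molecules, over 95 genes. Only 4 genes were higher in the field in all 8 sections, which is 4.21% of those compared. Among them were Scarb1, the scavenger receptor for high-density lipoprotein (0.70 ± 0.25), Foxp3 (0.63 ± 0.37), and Dnmt3a, a DNA methyltransferase (0.45 ± 0.33; SD, n = 8 each). Cd3d was higher in 7 of 8 sections (0.58 ± 0.76) and Cd28 in 3 of 8 (-0.19 ± 0.54). The difference in Cd4, on which the field was drawn, was 4.81.

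Lower in the field in all 8 sections were 11 genes, or 11.6%. The differences of the leading 3 were -3.68 ± 0.81 for Il12a (a subunit of interleukin-12), -3.22 ± 0.55 for Flt3 (a growth factor receptor of dendritic cell precursors) and -2.38 ± 0.68 for Tox (a factor of exhausted T cells). Among the others were Ly6d, Spp1, Batf3, Arg1, Tert, Dnmt1 and Dnmt3b, from -2.21 to -0.38. Il12a and Flt3 were rare in the field, at 167 and 149 CPM (molecules scaled to a total of 1000000 panel molecules). Over whole sections, 11.3% of Tox and 10.3% of Flt3 molecules lay within 100 pixels of an anchor on average, against 60.2% for Cd8a. The cells that held these transcripts were not determined. Sirpa, the receptor of the CD47 signal and abundant in neurons and myeloid cells, was lower in 7 of 8 sections (-0.43 ± 0.36), and combination section 2 went the other way at 0.32. The microglial genes Tmem119 (0.38 ± 0.41) and Csf1r (0.32 ± 0.34) and the macrophage gene Adgre1 (0.20 ± 0.76) had mixed signs over the sections.

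Over all tissue bins, the 10 genes with the highest mean Spearman correlation with Cd4 were led by Scarb1 (rho 0.31), Dnmt3a (0.29), Cd47 (0.24), S1pr1 (0.23) and Sirpa (0.21). Lag3, Cd68, Csf1r, Icos and Fabp5 followed with 0.17 to 0.09. These are means of 8 within-section values over 2155 to 2405 bins, and bins share depth and tissue with their neighbours, so they describe placement alone. In low bins alone the same correlations were 0.52 for Scarb1, 0.44 for Dnmt3a, 0.37 for Cd47 and 0.37 for Cd68. S1pr1 (0.12), Sirpa (0.08), Lag3 (0.15) and Fabp5 (0.08) were no longer among the 10 highest there. The anchors were weakly related to Cd4 over bins, with 0.08 for Cd3d, 0.04 for Cd28 and 0.09 for Foxp3, and Cd8a was at -0.02. Among the 5 lowest were Il12a (-0.27), Gpnmb (-0.23), Flt3 (-0.22) and Tert (-0.19). Il16 (-0.06), Lag3 (0.17) and Cd74 (-0.08), which encode a CD4 ligand, a CD4-like receptor of MHC class II and the invariant chain of that complex, gave no common order over sections, with Il16 running from -0.34 to 0.23 and Cd74 from -0.38 to 0.19.

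The distance of Cd4 from anchors was then measured. The share of all Cd4 molecules within 100 pixels of an anchor was 7.30 and 28.0% in the PBS sections, 11.7 and 9.97% with anti-PD1, 7.11 and 16.2% with CpG-STAT3ASO, and 9.96 and 12.3% in the combination sections. For comparison, 10.03, 14.5, 20.5, 11.4, 4.11, 11.3, 7.40 and 14.1% of the points of an even lattice over the tissue lay as near, in the same order of sections. Of the false-positive codes, 15.1, 18.2, 27.3, 17.5, 4.70, 11.7, 8.62 and 16.8% lay as near, above the lattice in 8 of 8 sections. They were not measured within 50 pixels. The share of Cd4 was above that of the lattice in 4 of 8 sections, PBS section 2 and the sections CpG-STAT3ASO 1, CpG-STAT3ASO 2 and combination 1. Within 50 pixels it was above the lattice in 8 of 8 sections, at 1.13 to 4.93 times the lattice share, with 3.49 to 21.9% of Cd4 molecules as near. Cd8a, measured the same way, lay near an anchor in 48.9 to 73.3% of its molecules. Of 92 other genes, 90, 36, 91, 89, 67, 77, 76 and 92 had a higher share than Cd4. A section held only 690 to 4496 anchors, so a Cd4 molecule with no anchor nearby need not lie outside a T cell.

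The share near an anchor was compared between treatments, in a design that could not have called a single difference. With CpG-STAT3ASO it was 11.4 ± 3.83% and without it 14.3 ± 9.35% (SD, n = 4 each), a difference of -2.87 percentage points (two-sided exact permutation test over 70 assignments, p = 0.743, adjusted p = 0.743 over 4 tests). Without PBS section 2 the difference was 1.72 points. The difference with anti-PD1 was -3.66 points (exact p = 0.6, adjusted p = 0.743). As a ratio to the lattice share, the differences were 0.32 for CpG-STAT3ASO (exact p = 0.429, adjusted p = 0.743) and -0.54 for anti-PD1 (exact p = 0.171, adjusted p = 0.686). With 4 against 4 sections the smallest p is 0.0286, reached by complete separation alone, and a single difference at that p has an adjusted p of 0.114 over 4 tests, so these values do not show that the treatments are alike.

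Inside the field, few Cd4 molecules lay near an anchor. The shares were 4.2, 10.3, 5.22, 5.45, 6.02, 14.4, 8.45 and 8.95% of Cd4 molecules, against 3.88, 8.16, 5.34, 4.65, 4.52, 13.8, 7.59 and 9.16% of lattice points (PBS 1, PBS 2, anti-PD1 1, anti-PD1 2, CpG-STAT3ASO 1, CpG-STAT3ASO 2, combination 1, combination 2). The ratio of the shares ran from 0.977 to 1.33, and in the same bins 42.6 to 72.3% of Cd8a molecules lay near an anchor.

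Outside the field the order changed. In dense bins outside it, 73.0, 75.4, 88.4, 61.8, 51.8, 52.9, 30.3 and 94.4% of Cd4 molecules lay near an anchor, against 16.2 to 45.0% of lattice points, and Cd4 was above the lattice in 8 of 8 sections. The last 4 of these values rest on 56, 102, 33 and 126 Cd4 molecules, since the sections with CpG-STAT3ASO had few dense bins. In the remaining bins the shares were 22.6, 27.3, 24.8, 5.51, 21.2, 52.6, 35.2 and 62.1%, against 3.6 to 15.4% of lattice points, again above the lattice in 8 of 8. At 50 pixels, a radius read by region after the data were seen, the share of field Cd4 near an anchor was 1.20 to 2.19 times that of the lattice, above it in 8 of 8 sections. In the same bins the ratio was 12.7 to 34.6 for Cd8a, 1.18 to 1.81 for Dnmt3a, 1.25 to 1.79 for Cd47 and 1.11 to 1.82 for Sirpa. In dense bins outside the field the ratio at 50 pixels was 3.14 to 12.4 for Cd4 and 1.07 to 1.83 for Dnmt3a. In the remaining bins it was 3.43 to 16.3 for Cd4 and 1.36 to 2.58 for Dnmt3a. The description of Cd4 as lying outside T cells was therefore not met by the Cd4 of the dense bins outside the field. The Cd4 of the remaining bins also lay nearer to anchors than the lattice. For the field, with 59.2 to 95.3% of a section's Cd4, the data show few anchors near most Cd4 molecules, and T cells without a detected anchor cannot be told apart from other cells.

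**Figure D3:**
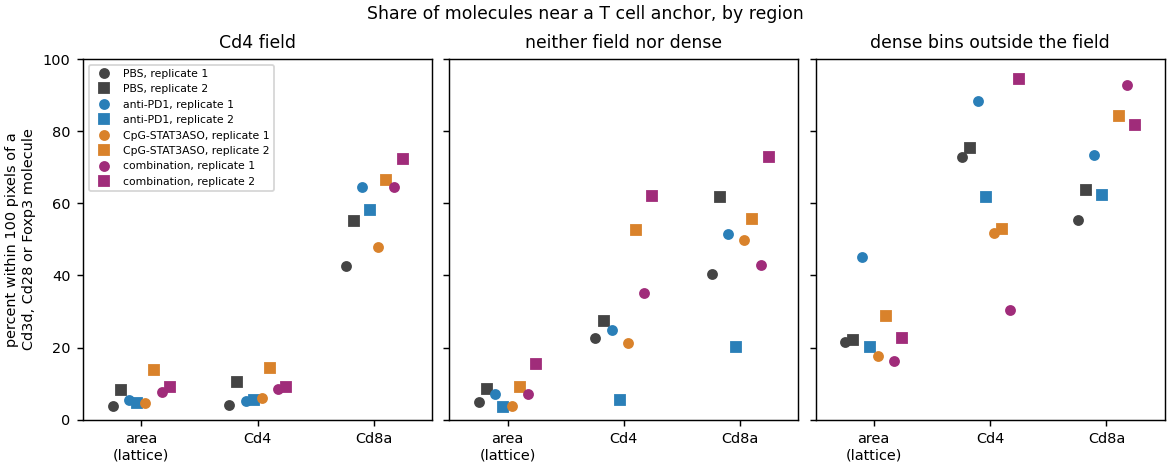
Percent of lattice points, Cd4 molecules and Cd8a molecules within 100 pixels of a Cd3d, Cd28 or Foxp3 molecule, 1 point per section, in the Cd4 field, in bins that are neither field nor dense, and in dense bins outside the field. In the field Cd4 sits at 4.2 to 14.4%, where the lattice sits at 3.88 to 13.8%, and in dense bins outside it at 30.3 to 94.4%. CpG-STAT3ASO section 1 had no Cd8a molecule in the latter bins and has no point there.

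The molecules around single Cd4 molecules were then counted, as the log2 ratio of a gene's density within 50 pixels to that in a ring of 400 to 600 pixels. Over all Cd4 molecules, the median of 95 other genes was 0.62 and Cd4 itself stood at 1.88. The 8 genes with the highest ratio were Ifng (3.10), Pdcd1 (2.54), Cd3d (2.47), Cd28 (2.46), Ctla4 (2.38), Icos (2.26), Il2ra (2.09) and Nkg7 (2.07). All are genes of T cells or NK cells, and Foxp3 was at 1.81. Ratios are averaged over Cd4 molecules of unlike places, so field and non-field molecules were read apart.

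Around the Cd4 molecules outside the field, the T cell genes were concentrated. Cd4 was at 4.72 ± 0.50, Ifng (interferon gamma) at 4.56 ± 0.73, Pdcd1 (PD-1) at 4.14 ± 0.34, Cd3d at 4.07 ± 0.48 and Cd28 at 3.97 ± 0.43 (SD, n = 8 sections). Ctla4 (3.77 ± 0.42), Il2ra (3.59 ± 0.30), Icos (3.55 ± 0.66) and Nkg7 (3.53 ± 0.57) followed, and Foxp3 was at 3.32 ± 0.59, against a median of 0.90 over the other genes. Cd8a was at 0.63 ± 0.41, below that median. Il16 (1.76 ± 0.72) and Lag3 (1.72 ± 0.87) were above the median, and Csf1r (0.55 ± 0.15), Cd74 (0.55 ± 0.39) and Tmem119 (0.13 ± 0.30) were below it.

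Around the Cd4 molecules of the field the leading genes were others. The median gene was at 0.35 and Cd4 at 1.78 ± 0.13. The 8 highest were Il2 (1.84 ± 0.29), Ifna2 (1.71 ± 0.22), Icos (1.68 ± 0.29), Dnmt3a (1.66 ± 0.12), Cd47 (1.60 ± 0.12), Scarb1 (1.54 ± 0.10), Crbn (1.48 ± 0.11) and Sirpa (1.45 ± 0.09). Il2 and Ifna2 are rare, at 54.9 and 236 molecules per section on average, while Dnmt3a, Cd47, Scarb1, Crbn and Sirpa are among the abundant targets of the panel. Cd47 encodes the ligand of the Sirpa product, and Crbn encodes cereblon, a substrate receptor of a ubiquitin ligase. Cd28 (1.30 ± 0.63), Cd3d (1.26 ± 0.77) and Foxp3 (1.02 ± 0.19) were also above the median gene. Foxp3 ran from 0.73 to 1.38 and Cd28 from 0.40 to 2.25, above that median in all 8 sections, and Cd3d from 0.05 in combination section 2 to 2.58 in PBS section 2. Cd8a (0.48 ± 0.44) was close to the median, and the microglial genes Tmem119 (0.00 ± 0.11) and Csf1r (0.00 ± 0.14), Adgre1 (-0.05 ± 0.16), Lag3 (0.04 ± 0.13) and Cd74 (-0.13 ± 0.19) were at the density of the ring.

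**Figure D4:**
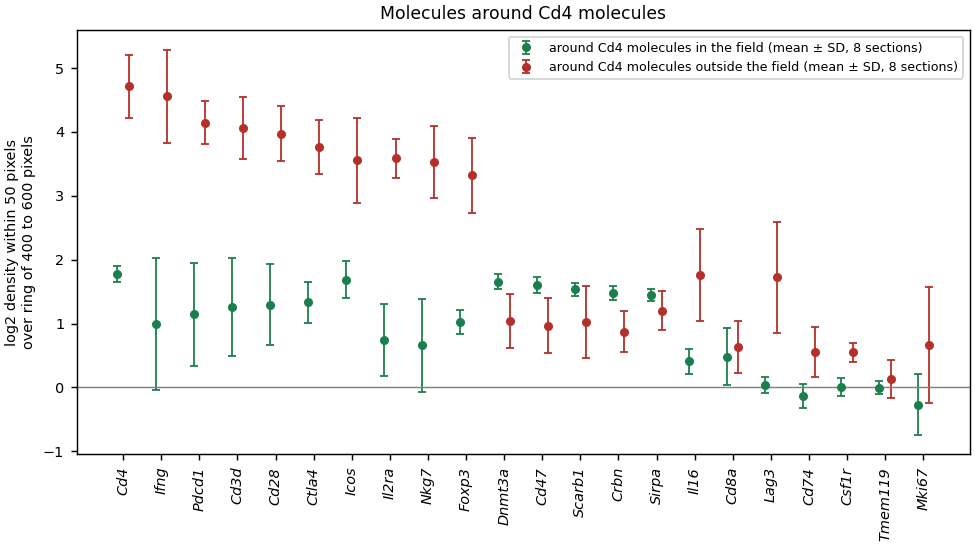
Log2 density of each gene within 50 pixels of Cd4 molecules over that in a ring of 400 to 600 pixels, as mean and SD over 8 sections, for Cd4 in the field and outside it. T cell genes stand between 3.32 and 4.56 around Cd4 outside the field, where Cd8a is at 0.63, and Dnmt3a, Cd47, Scarb1, Crbn and Sirpa stand between 1.45 and 1.66 around Cd4 in the field.

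Treatment was compared within bin classes. Outside dense bins, Cd4 did not pass the test for any treatment. Its level there was 30521 and 9604 CPM in the PBS sections, 39253 and 18182 with anti-PD1, 18362 and 18807 with CpG-STAT3ASO, and 24319 and 9275 in the combination sections. The sections with and without CpG-STAT3ASO overlapped. The average CpG-STAT3ASO effect was -0.36 on the log2(CPM + 1) scale (SE 0.478, limma adjusted p = 0.754), in a comparison that called 7.14% of 98 genes. The value was -0.56 without the field, and 0.06 without PBS section 1. The average anti-PD1 effect was 0.17 (adjusted p = 0.998) in a comparison with 0.0% called, where limma found 0 genes also at an unadjusted p under 0.05, and its sign turned without PBS section 2, anti-PD1 section 1 or combination section 1.

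In dense bins, the share of Cd4 rose with CpG-STAT3ASO. It was 430 and 485 CPM in the PBS sections, 732 and 264 with anti-PD1, 5977 and 10925 with CpG-STAT3ASO, and 12939 and 771 in the combination sections. All 4 sections with CpG-STAT3ASO were above all 4 without it, though combination section 2 was close to anti-PD1 section 1. The average effect was 3.49 (SE 0.851, limma adjusted p = 0.0157), in a comparison that called 37.8% of 98 genes, 31 of 37 higher, with a median over all genes of 0.72. The call was lost without PBS section 1 (adjusted p = 0.0516), PBS section 2 (0.0524) or anti-PD1 section 2 (0.0633). Counted per bin, the levels were 1.88 and 2.99 Cd4 molecules in the PBS sections, 4.82 and 1.33 with anti-PD1, 8.70 and 27.7 with CpG-STAT3ASO and 17.0 and 1.99 in the combination sections. On that scale the groups overlapped and the effect did not pass (log2 1.95, adjusted p = 0.0867).

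The dense bins of the treated sections were few and lay partly in the field. There were 23, 33, 22 and 78 dense bins in the sections with CpG-STAT3ASO (CpG-STAT3ASO 1 and 2, combination 1 and 2), of which 6, 20, 8 and 3 were in the field. Without CpG-STAT3ASO there were 714, 965, 827 and 1090, of which 1, 0, 7 and 12 were in the field. Dense bins outside the field held 426 and 485 CPM of Cd4 in the PBS sections, 688 and 248 with anti-PD1, 2098 and 3119 with CpG-STAT3ASO, and 1829 and 651 in the combination sections. Combination section 2 was below anti-PD1 section 1, so the groups overlapped. The effect on the share was 1.94 (SE 0.541), and on the molecules per bin 0.42. The field was drawn from the Cd4 counts themselves, and leaving it out took unequal parts of the dense bins. Both effects are therefore a description, with no test. The per-bin values were 1.86, 2.99, 4.55 and 1.26 without CpG-STAT3ASO and 3.29, 7.85, 2.36 and 1.68 with it, which overlap. A CPM value depends on all other molecules in the same bins, and a value per bin does not.

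**Figure D5:**
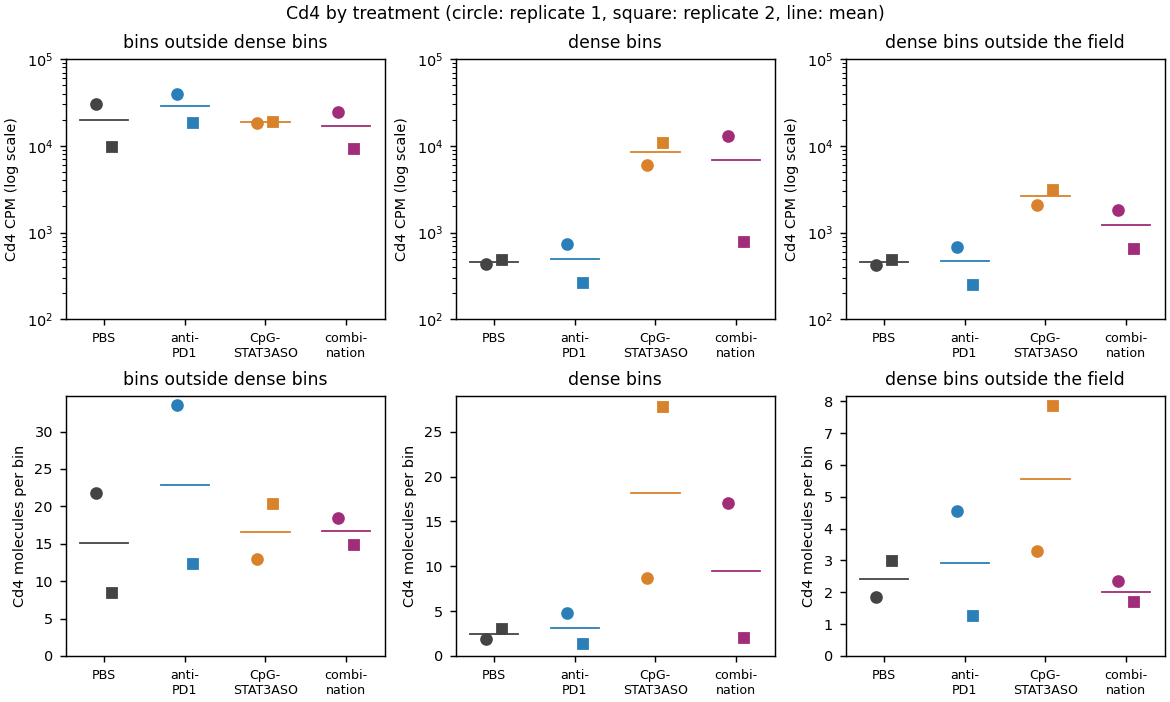
Cd4 level by treatment in bins outside dense bins, in dense bins and in dense bins outside the Cd4 field, as CPM on a log axis (top) and as molecules per bin (bottom), 1 point per section with a line at the mean. In dense bins the sections with CpG-STAT3ASO lie at 771 to 12939 CPM and the others at 264 to 732, and the molecules per bin overlap.

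The difference between dense bins and the bins outside them was tested directly. The average CpG-STAT3ASO effect was higher in dense bins by 3.85 (SE 0.631, limma adjusted p = 0.00334), in a comparison that called 33.0% of 97 genes. Against PBS, CpG-STAT3ASO alone gave 4.14 in dense bins (SE 1.20, adjusted p = 0.0446; 27.6% called), 0.12 outside them (adjusted p = 0.962; 0.0% called) and a difference of 4.03 (adjusted p = 0.0222; 19.6% called). The combination against anti-PD1 gave 2.84 in dense bins (adjusted p = 0.134; 20.4% called), -0.83 outside them (adjusted p = 0.604; 5.1% called) and a difference of 3.67 (adjusted p = 0.0338; 13.4% called). The combination against PBS gave 2.79 in dense bins (adjusted p = 0.156) and a difference of 2.98 (adjusted p = 0.0599), which did not pass. These comparisons share the PBS or anti-PD1 sections.

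For anti-PD1, limma called 0 of 98 genes in dense bins (0.0%; 4 at an unadjusted p under 0.05) and 0 of 97 for the difference (0.0%; 2 unadjusted). The average anti-PD1 effect on Cd4 was -0.70 in dense bins (adjusted p = 0.992) and -0.87 for the difference (adjusted p = 0.933). The anti-PD1 sections differed from PBS by -0.05 in dense bins, and the combination from CpG-STAT3ASO by -1.35, with an interaction of -1.30 (adjusted p = 0.972).

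The whole-section share was also set against the division of molecules among the classes, as a description. Over whole sections Cd4 was at 8131, 1844, 7658 and 2668 CPM without CpG-STAT3ASO and at 18113, 18535, 24121 and 8840 with it. Low bins held 10.6 to 17.8% of the molecules in the former and 40.0 to 77.4% in the latter. The mean class levels of the sections without CpG-STAT3ASO were then applied to each section's own division. This gave 22486, 21129, 25733 and 16051 CPM in the 4 sections with CpG-STAT3ASO, and 6466, 4022, 4781 and 4024 in the others. The measured share was 0.551 to 0.937 times that value in the sections with CpG-STAT3ASO and 0.459 to 1.6 times in the others. The mean level applied to low bins was 31583 CPM, from sections at 12609 to 51231 CPM. What set the whole-section share was not tested. In low bins, Cd4 per bin was 27.2, 9.64, 37.3 and 12.6 without CpG-STAT3ASO and 13.1, 18.6, 18.7 and 23.0 with it, and the average effect on its share was -0.36 (limma adjusted p = 0.647; 9.18% called).

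Of 32 genes listed for the CD4 coreceptor pathway (the receptor complex, ligands, costimulation, helper factors and cytokines), 17 are on the panel and 16 were measured in each class. Outside dense bins none of the 16 passed for CpG-STAT3ASO by limma, against 7.14% of all genes. In dense bins 4 passed as higher and 1 as lower, with a list median of 1.04 against 0.72 for all genes. Over all genes 37.8% were called there, 31.6% as higher. As shares of the molecules in dense bins, the costimulatory ligands Cd80 (3.43, limma adjusted p = 0.00144) and Cd86 (1.93, adjusted p = 0.00608) rose. So did the shares of their receptor Cd28 (1.51, adjusted p = 0.0441) and the MHC class II receptor Lag3 (1.52, adjusted p = 0.0445). Dense bins held fewer molecules of all genes per bin in each section with CpG-STAT3ASO than in any without it. A higher share need therefore not be a higher number per bin, and values per bin are not given for these genes. The gene called lower was Il2, a T cell growth factor (adjusted p = 0.0429). It had 58, 11, 51 and 37 molecules in the dense bins without CpG-STAT3ASO (7.84 CPM) and 0 in all 4 sections with it. Those bins held 347045 molecules, where 3 counts over the group are 8.64 CPM, so a change of Il2 was not detectable at this depth. The list median is 1.04 also with Il2 at that floor. The T cell and ligand genes Cd3d (1.61, adjusted p = 0.082), Foxp3 (1.12, adjusted p = 0.157), Il16 (0.42, adjusted p = 0.332) and Cd74 (-0.85, adjusted p = 0.303) did not pass, nor did Cd8a (0.04, adjusted p = 0.996), which had 0 molecules in the dense bins of CpG-STAT3ASO section 1.

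As shares of the molecules in dense bins, some markers of other cells also rose and others did not pass. Over all 98 genes 31.6% were called higher in this comparison. Values per bin are not given for these markers. Of the neuron list only Sirpa, 1 of 6 genes, is on the panel, and it rose (3.77, limma adjusted p = 0.00068). Of the astrocyte and vessel list 2 of 8 are on it, and both rose, S1pr1 (3.35, adjusted p = 0.00207) and Fabp5 (3.46, adjusted p = 0.00268). Of the 7 measured monocyte and macrophage genes 5 rose and the others did not pass, with a list median of 2.09. Adgre1 was among the 5 (4.09, adjusted p = 0.00068). Of the microglia list, Csf1r rose (2.74, adjusted p = 0.00111) and Tmem119 did not pass (-0.62, adjusted p = 0.345). Stat3, the target of the oligonucleotide, fell by 1.04 in dense bins (adjusted p = 0.0445) and was at -0.42 outside them (adjusted p = 0.588). Their part in the Cd4 result was not tested.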

How the data were processed

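The deposited files list, per the file contents, 1 molecule per line with its x, y and z position in pixels and its target, as called by the authors from Resolve single-molecule in situ hybridisation per the labels. The unit is thus a molecule position, and molecules per bin and gene were tallied here. For the spot caller and the pixel size, a statement is not given in the sources used here. Seurat 4.2.0 is named in the submitters' processing notes without a role. Targets whose names start with FP, taken as false-positive codes, entered only the totals of molecules of all targets and a comparison of shares near anchors.

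Bins were squares of 360 pixels. For each class of bins, log2(CPM + 1) (for genes averaging 10 or more molecules a section) was fitted with 4 group means in limma 3.58.1 (R 4.3.3, lmFit and eBayes with trend) over all 8 sections, p-values adjusted by Benjamini-Hochberg over all genes fitted, threshold 0.05, two-sided. The difference between classes was fitted on each section's difference. CPM is the share of panel molecules in the class, so a change of other genes moves it. Shares near anchors used lattice points every 20 pixels and an exact permutation test (Python 3.11.15, numpy 2.4.6). Ring densities had 0.5 added and no correction for tissue edges. The fits were tested on simulated data. Their number of sections limits the precision, and no depth per cell is known.

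Cd4, the gene lists, the bin classes and the rule for named genes were chosen with earlier results of these data known. That rule names the 10 highest and 5 lowest genes by mean Spearman correlation over bins and the 8 highest by density around Cd4, each among genes averaging 50 or more molecules a section, and a set of marker genes. The other genes were chosen after their values were seen, and some genes that the rule takes are not reported here. The labels do not say that equal section numbers pair the sections, and the main fit used no pairing. The deviations of same-numbered sections from their group means correlated from -0.66 to 0.61. They were negative in each pair with anti-PD1 and positive in the other pairs, so this check does not settle whether sections share a structure. Alternatives were the scaling, pseudocount, gene filter, bin size, tissue limit, dense limit, replicate block, eBayes without trend, radius, anchor set and each section left out, and, chosen after seeing the data, bins outside the Cd4 field, field limits of 5 and 20 and near shares by region within 50 pixels.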

Additional observations from a re-analysis of the deposited data

Results flagged for a closer look

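The effect of CpG-STAT3ASO on the Cd4 share differed between dense bins and the bins outside them by a test of the difference itself, in 3 comparisons. The log2 difference of the effects was 3.85 for the average CpG-STAT3ASO effect, 4.03 for CpG-STAT3ASO against PBS and 3.67 for the combination against anti-PD1. These comparisons share sections. As molecules per tissue bin in place of CPM, the first was 1.97 (limma adjusted p = 0.037). That comparison called more genes than the one on CPM, which called 33.0% of 97, so the call is not particular to Cd4.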

How the results depend on the processing

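The average CpG-STAT3ASO effect on Cd4 in dense bins (3.49) kept its direction under every alternative run. It did not pass as molecules per tissue bin (1.95) or with a dense limit of 200 (3.33), and ran from 2.48 to 4.51 with 1 section left out. Without the Cd4 field, chosen after seeing the data, it was 0.42 as molecules per tissue bin, which is a description. The difference between dense bins and the rest (3.85) did not pass with a dense limit of 200 (3.33) and ran from 3.18 to 4.52 with 1 section left out. The effect outside dense bins ran from -0.77 to 0.061 (above 0 without PBS section 1). The anti-PD1 effect with 1 section left out ran from -0.25 to 0.58 outside dense bins and from -1.72 to 0.31 in them (above 0 without combination section 2). Of 12 single comparisons Cd4 passed in 1, against 0 as molecules per tissue bin, with median-of-ratios size factors or with a dense limit of 200, 3 with bins of 180 pixels or a dense limit of 50, and 0 to 3 with 1 section left out. With the replicate number as a block, the effects were 3.49 (adjusted p = 0.0151) in dense bins, -0.36 outside and 3.85 for the difference, and the block changed no call. Per tissue bin, the median effect of all genes in dense bins was -0.79 in place of 0.72, and 11 of 45 calls were higher in place of 31 of 37. With median-of-ratios size factors 16 of 35 were higher. For the difference, 57 of 97 genes were called per tissue bin, against 32 of 97 as reported. With a dense limit of 200, 10 genes were called. Bins of 720 pixels gave no value in dense bins, since some sections then had none.

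The mean share of Cd4 near anchors (12.8%) was 26.6% at 200 pixels, 7.9% at 50 pixels, 4.59% with Cd3d alone and 10.6 to 13.6% with 1 section left out. Its difference with CpG-STAT3ASO ran from -5.18 to 1.72 points (above 0 without PBS section 2). In low bins alone 6 of the 10 genes leading the correlation stayed. In the 4 sections without CpG-STAT3ASO, the dense to low difference was -5.92 as a share and -2.94 per bin. The field's mean share of Cd4 (88.0%) was 89.9 and 80.8% with limits of 5 and 20. The cause of these changes was not tested. The few anchors and dense bins limit what the near shares can show.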
